A study of Mus musculus with 27 samples.

Results

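The genes described here are interferon-stimulated genes, a set of 41 genes whose products carry out or amplify the cell's response to interferon. They were chosen by symbol for their known roles, with earlier results of these data known. Counts and medians set beside those of all genes are therefore descriptions only. A gene was measured where at least 1 probe set on the array was annotated to its symbol alone. This held for 39 of the 41 genes, out of 18193 genes measured in all, while Isg15 and Ifi44 had no such probe set and were not analysed here. Where several probe sets measured 1 gene, the brightest over all arrays stood for it.

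Interferons are secreted proteins that bind receptors on the cell surface and, through JAK kinases, activate STAT and IRF transcription factors. These factors act on promoters through short motifs, among them the interferon-stimulated response element and the gamma-activated site. The genes induced in this way include sensors and destroyers of foreign RNA, proteins that hold back virus entry or release, components of antigen presentation, and chemokines. Fibroblasts make and respond to interferon beta, and ionising radiation is known to induce parts of this programme through DNA in the cytosol.

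The samples were mouse embryonic fibroblasts of 3 lines, hybridised to 27 whole-transcriptome 3′ expression arrays. The WT line carried PKBalpha, the kinase encoded by Akt1. The KO line was PKBalpha -/-, and the line labelled R was, per the labels, a PKBalpha -/- line with PKBalpha put back. Each line was sampled untreated, 4 h after 10 Gy of gamma radiation and 24 h after the same dose, with 3 arrays a group, numbered 0, 1 and 2. All groups shared female origin, passage 45, medium with 10% serum and 24 h of culture before irradiation; the time in culture of the untreated cells was not given. The titles decided each group, since free-text descriptions label 6 irradiated WT samples as untreated. Each genotype was represented by 1 line, so a difference between lines cannot be told apart from other differences between those cultures. The design text calls the 3 arrays of a group biological replicates without saying that they came from separate cultures, so p-values measure only the spread between these samples, which may be technical.

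Intensities were scaled by the submitters, and the background was set at an intensity of 48.3, the highest of 243 values of 9 probe sets of the Y-linked genes Eif2s3y, Uty and Kdm5d in these female cells; over all 20 Y-linked probe sets the highest value was 74.5. The transcript of Akt1 had a geometric mean of 3530 in untreated WT arrays, 14.6 in KO and 20.9 in R, so that KO and R both lay below background. The label of R as a line with PKBalpha put back was therefore not borne out at the probe set measured, and whether that probe set covers the introduced copy was not given in the sources used here. Cdkn1a, a p53 target that halts the cell cycle, went from 592 to 2130 in WT 4 h after irradiation (limma, adjusted p = 0.015). It went from 235 to 234 in KO and from 115 to 147 in R, neither called. The change in KO or R was not shown to differ from that in WT (limma interaction term, adjusted p = 0.54 and 0.66). All 10 fibroblast markers were above background in at least 1 group, with summed intensities of 118000 to 147000 in the WT groups, 125000 to 150000 in KO and 117000 to 135000 in R. Single markers differed more than these sums. Untreated Dcn read 14600 in WT, 4420 in KO and 1210 in R, and untreated Thy1 read 3350, 12100 and 6400. The 9 markers of macrophages and leukocytes summed to 354 to 435 in WT, 295 to 371 in KO and 294 to 386 in R. Of these, 5 (Ptprc, Aif1, Itgam, Tyrobp and Siglech) were below background everywhere. Csf1r was above background in all 9 groups, Cd68 in 6, Adgre1 in 4 and Lyz2 in the 3 R groups only. In untreated WT, KO and R, Csf1r read 141, 115 and 98.8 and Cd68 91.3, 47.6 and 41.9. Adgre1 read 59.8, 51.1 and 47.1, and Lyz2 29.3, 43.9 and 76.4. The 7 epithelial or mesothelial markers summed to 11800 to 17200 in WT against 215 to 242 in KO and 171 to 273 in R. Upk3b, at 16400 in untreated WT, 18.8 in KO and 11.2 in R, made up most of the WT sum. Upk3b, Msln, Krt8 and Krt18 were above background only in WT groups and Cdh1 in no group. Krt19 ran the other way, at 54.6, 77.6 and 91.1 in untreated WT, KO and R, and Epcam read 80.6, 84.4 and 92.4. The 5 endothelial markers summed to 301 to 481 in WT, 69.4 to 110 in KO and 89.3 to 116 in R, with Kdr the only member above background and Pecam1, Cdh5, Tek and Emcn below it throughout. Several of these markers moved with the line, and their part in the line differences below was not tested. In bulk RNA, fewer cells of a type and less RNA per cell cannot be told apart. In 5 arrays (WT untreated 2, WT 4 h 0, KO untreated 2, R untreated 1 and R 24 h 2) the 3′ minus 5′ log2 difference of the Gapdh control probe sets was -0.187 to 0.16, against -0.466 to -0.298 in the other 22, and that of the actin probe sets was 0.39 to 0.592 against 0.128 to 0.292.

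Of the 39 genes, 21 had geometric means above background in all 9 groups, 13 in some and 5 in none. The 5 below background throughout were Oas2, Oas3, Mx2, Zbp1 and Cmpk2, and no fold change is given for them. At a background of 74.5 the numbers were 19, 13 and 7, with Mx1 and Usp18 added to those below it throughout, and bounds on a fold (written "at least") shrink by up to 1.54 times. Folds from a group mean between 48.3 and 74.5 become bounds at the higher background. Values of folds and bounds below are at 48.3 unless stated. Every gene entered the fit, with no filter on intensity. Outside the marker sums above, in which the brightest probe sets weigh most, levels of different probe sets are not compared with each other. A probe set's intensity depends on its sequence as well as on the amount of RNA.

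In untreated cells, 7 of the 39 genes were higher in KO than in WT and 2 were lower (limma, adjusted p below 0.05 over all genes). Over all genes, 7.77% were called higher and 9.83% lower in the same comparison. The genes that were higher were Samd9l, Ifit1, Psmb8, Psmb9, Tap2, Lgals3bp and Ifitm3; those that were lower were Isg20 and Trim25. Against WT, the line labelled R had 12 genes higher and 2 lower, beside 9.39% of all genes in each direction. The 12 were Samd9l, Ifit1, Lgals3bp, Parp12, Tap2, Oasl2, Psmb8, Parp14, Psmb9, Tap1, Cxcl10 and Rsad2, and the 2 were again Trim25 and Isg20. With limma on the 6 compared arrays alone, the KO calls of Psmb9, Ifitm3 and Lgals3bp and the R calls of Rsad2, Psmb8, Psmb9, Tap1, Tap2, Parp14 and Cxcl10 were lost. The median log2 difference of the 39 genes was 0.26 for KO minus WT and 0.74 for R minus WT, where the medians of all genes were -0.0 and 0.06. These comparisons share the WT arrays, so their values are given side by side and not set against each other as independent evidence. When arrays were set to equal medians, the median of all genes moved to 0.27 for KO minus WT and 0.2 for R minus WT, the medians of the 39 genes to 0.53 and 0.88, and the counts to 13 higher and 2 lower for KO and 15 and 2 for R. Over all genes the share of calls that were higher went from 44.1% to 70.9% for KO and from 50% to 64.2% for R under that scaling.

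**Figure D1:**
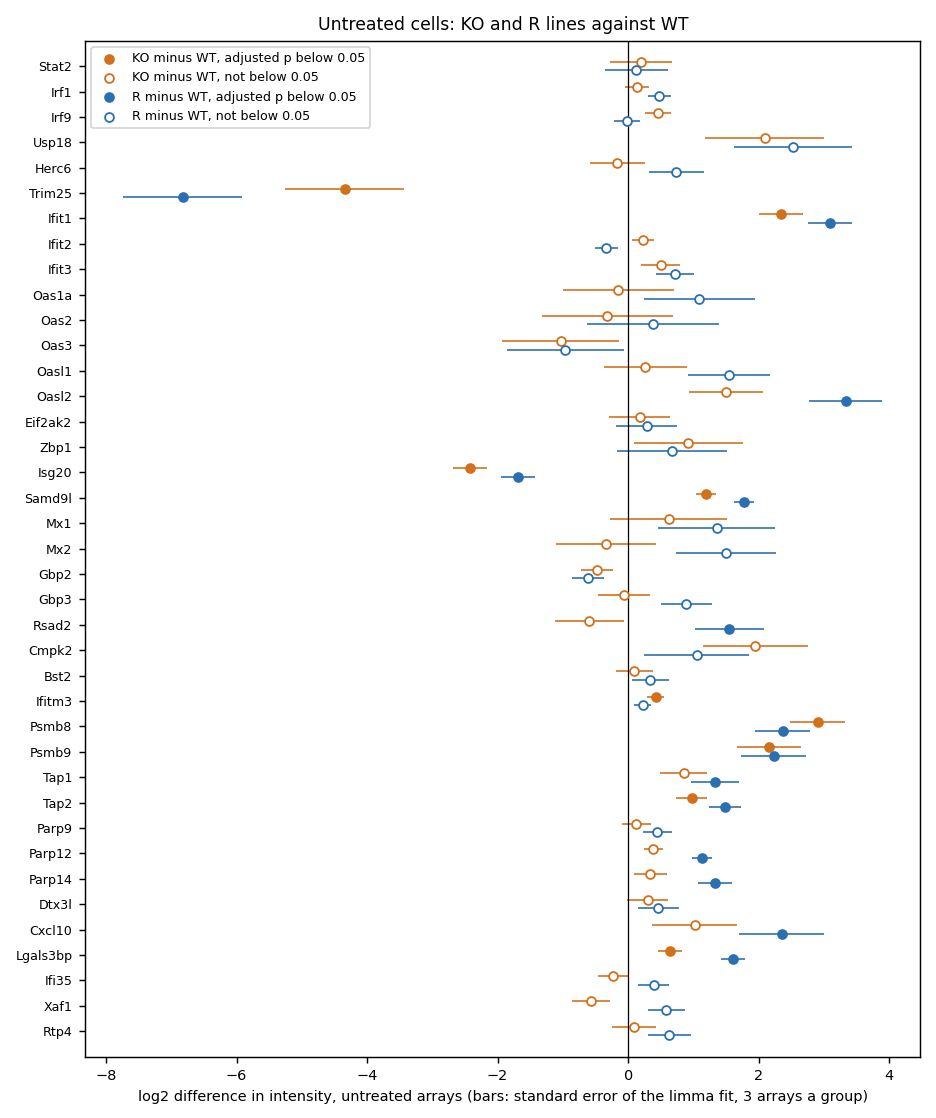
Log2 difference in intensity of each of the 39 genes in untreated cells, KO minus WT in orange and R minus WT in blue, with the standard error of the fit over 3 arrays a group. Filled points passed an adjusted p of 0.05; Trim25 and Isg20 lie left of 0 in both lines, and the other filled points lie right of it.

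A total of 30 of the 39 genes had a promoter of 300 bases in the RefSeq table (assembly GRCm38.p6), running from 250 bases before to 50 bases after the start of the gene. The core of the interferon-stimulated response element, GAAANNGAA on either strand, was found in 14 of those 30 genes (46.7%), against 1251 of 14367 genes with a promoter (8.71%). The gamma-activated site, TTCNNNGAA on either strand, was found in 9 of 30 (30.0%) against 8.57% of all genes; the motifs can overlap. A match is a description of the letters in this window and says nothing of binding. The promoters of 5 genes that are described in full below and hold the core are shown, as the stretch on which interferon signalling is known to converge; capitals mark the core on either strand, and each sequence runs 5′ to 3′ along its gene. Ifit1 lies at chr19:34640639-34640938 (plus strand), Samd9l at chr6:3399522-3399821 (minus), Trim25 at chr11:88999153-88999452 (plus), Rsad2 at chr12:26456403-26456702 (minus) and Ifitm3 at chr7:141010695-141010994 (minus).
Ifit1: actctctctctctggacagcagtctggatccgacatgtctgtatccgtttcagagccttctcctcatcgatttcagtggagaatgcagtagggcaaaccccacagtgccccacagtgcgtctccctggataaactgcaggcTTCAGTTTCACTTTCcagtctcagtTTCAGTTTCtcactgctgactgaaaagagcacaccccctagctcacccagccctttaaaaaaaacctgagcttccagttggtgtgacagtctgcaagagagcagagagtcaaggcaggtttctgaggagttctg
Samd9l: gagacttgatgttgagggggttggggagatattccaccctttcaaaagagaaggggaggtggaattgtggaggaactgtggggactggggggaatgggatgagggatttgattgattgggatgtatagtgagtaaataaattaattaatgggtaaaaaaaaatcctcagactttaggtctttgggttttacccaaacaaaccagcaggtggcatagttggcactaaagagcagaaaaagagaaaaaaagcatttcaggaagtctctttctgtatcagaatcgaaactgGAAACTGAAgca
Trim25: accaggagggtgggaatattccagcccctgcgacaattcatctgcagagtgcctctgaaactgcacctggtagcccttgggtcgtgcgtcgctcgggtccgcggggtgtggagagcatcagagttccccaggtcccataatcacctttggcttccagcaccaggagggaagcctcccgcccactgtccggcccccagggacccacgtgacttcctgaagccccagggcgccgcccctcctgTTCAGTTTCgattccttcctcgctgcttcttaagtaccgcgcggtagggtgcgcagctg
Rsad2: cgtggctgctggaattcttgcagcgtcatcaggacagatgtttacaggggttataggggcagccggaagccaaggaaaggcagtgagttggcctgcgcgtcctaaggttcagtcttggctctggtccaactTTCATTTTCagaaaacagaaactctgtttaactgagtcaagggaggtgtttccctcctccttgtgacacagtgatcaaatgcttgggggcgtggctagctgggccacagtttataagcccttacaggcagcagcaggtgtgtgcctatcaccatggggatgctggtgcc
Ifitm3: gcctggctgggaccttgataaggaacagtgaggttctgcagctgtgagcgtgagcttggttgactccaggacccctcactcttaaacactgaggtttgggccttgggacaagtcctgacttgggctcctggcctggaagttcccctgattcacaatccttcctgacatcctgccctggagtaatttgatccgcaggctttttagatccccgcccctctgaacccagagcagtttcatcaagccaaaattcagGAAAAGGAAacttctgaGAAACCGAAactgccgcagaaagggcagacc
Ifit1 had 3 matches, which begin 109, 103 and 84 bases before the start, and the first pair overlaps. Ifitm3 had 2 matches and the other 3 genes had 1 each. Of the 5, Ifit1, Samd9l and Ifitm3 were higher in KO than in WT, Trim25 was lower, and Rsad2 was not called in that comparison.

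Among the signal factors, Stat2 and Irf9 encode partners in the complex that binds the response element, and Irf1 encodes a transcription factor induced by interferon gamma. None of the 3 was called in an untreated line comparison. Irf1 had geometric means of 1200 in WT, 1320 in KO and 1670 in R, with overlapping arrays between WT and each other line. Irf1 was higher in R than in WT at 24 h, where the arrays read 2440, 2480 and 1630 against 1330, 1240 and 1260 (1.68-fold, limma adjusted p = 0.0053). Irf9 was higher in KO than in WT at 4 h, at 210, 220 and 283 against 143, 124 and 130 (1.78-fold, adjusted p = 0.0059, limma). Stat2, Eif2ak2 and Herc6 were each the lowest of their group of 3 in all 5 arrays with raised 3′ to 5′ ratios. The share of all genes lowest in all 5 is not given here. Among the 39 genes, 7 were lowest in at least 4 of the 5, a share close to the 18.6% of all genes. The part of that ratio in their group means was not tested.

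Usp18 removes ISG15 from proteins and dampens the interferon receptor, Herc6 attaches ISG15 in the mouse, and Trim25 is a ubiquitin ligase that acts on the RNA sensor RIG-I. Trim25 had the largest log2 difference from WT among the 39 genes in both untreated lines. Its untreated intensities were 1650, 1950 and 1880 in WT, 77.3, 85.1 and 110 in KO, and 4.77, 31 and 27.8 in R. The 3 lines did not overlap, and R lay below background in every untreated array. KO was 20.3-fold lower than WT (log2 difference -4.34, SE 0.912, limma adjusted p = 0.0017), and R was at least 37.7-fold lower than WT (adjusted p = 1.4e-05, limma). All 3 probe sets of Trim25 went the same way, with untreated means of 1410, 59.6 and 16.7 at the second and 134, 29.0 and 12.1 at the third. The promoter of Trim25 printed above holds 1 match to the core, 9 bases before the start. Usp18 was below background in untreated WT (8.95) and KO (38.1) and read 60.7, 16.4 and 138 in R, and Herc6 read 159, 141 and 265 as group means; neither was called in an untreated comparison. For Herc6, another probe set than the brightest was higher in R than in WT (139 and 345, adjusted p = 0.0016 with each probe set tested by limma).

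Ifit1 binds foreign RNA by its cap, and Ifit2 and Ifit3 are relatives that act with it. Ifit1 read 50, 44.5 and 59.8 in untreated WT, 286, 343 and 178 in KO, and 323, 326 and 776 in R. Both lines lay above every WT array, and the 776 of R replicate 2 stood apart from the 2 other R arrays. The change was 5.08-fold for KO (log2 2.35, SE 0.338, adjusted p = 3.8e-05, limma) and 8.5-fold for R (log2 3.09, SE 0.338, adjusted p = 1.2e-06). Both calls held in all 36 alternative fits; at a background of 74.5, WT lies below it and the changes are at least 3.47-fold and at least 5.82-fold. Ifit2 read 793, 931 and 630 as means of untreated WT, KO and R without a call, and was lower in R than in KO at 4 h (1.64-fold, limma adjusted p = 0.025). Ifit3 read 162, 229 and 266 and was called only in R against WT at 24 h (1.91-fold, limma adjusted p = 0.027), a call lost without WT 24 h replicate 1 or 2 or R 24 h replicate 0 or 1.

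The OAS enzymes make short oligoadenylates that switch on an RNA-degrading enzyme, and Oasl1 and Oasl2 are OAS-like proteins. Oasl2 was below background in every WT group. It read 7.52, 19.3 and 21 in untreated WT, 28.8, 36.1 and 65.7 in KO, and 101, 147 and 210 in R. R lay above every array of both other lines, and was at least 3.02-fold higher than WT (at least 1.96-fold at a background of 74.5; adjusted p = 0.00021, limma) and not called against KO when untreated (adjusted p = 0.08). At 4 h and 24 h Oasl2 was higher in R than in both other lines, at least 1.97-fold and at least 4.36-fold. Oasl1 had means of 37.6, 45.1 and 110 in untreated WT, KO and R, which was not called, and Oas1a was above 48.3 in the R groups only, at 53.2, 98.4 and 61.8, without a call; the second of these alone was above 74.5.

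Eif2ak2 encodes PKR, which shuts down translation on binding double-stranded RNA, Zbp1 a sensor of Z-form nucleic acids, Isg20 an RNA exonuclease, and Samd9l an inhibitor of translation. Isg20 was the second gene that was lower in KO and R. It read 643, 717 and 698 in untreated WT, 134, 121 and 128 in KO, and 163, 293 and 202 in R. No KO or R array reached the lowest WT array. The difference was 5.36-fold for KO (log2 -2.42, SE 0.263, adjusted p = 1.1e-06, limma) and 3.21-fold for R (log2 -1.68, SE 0.263, adjusted p = 8.9e-05). Samd9l went the other way and kept the order WT, KO, R in all 3 conditions. It read 236, 285 and 301 in untreated WT, 625, 545 and 714 in KO, and 844, 994 and 981 in R. The 3 lines did not overlap. KO was 2.29-fold higher than WT (log2 1.19, SE 0.154, adjusted p = 1e-05, limma), R was 3.43-fold higher than WT (log2 1.78, adjusted p = 4.8e-08), and R was 1.5-fold higher than KO (adjusted p = 0.038), a call lost without KO untreated replicate 0 or 1, R untreated replicate 1 or 2, or R 4 h replicate 0. The promoter of Samd9l holds 1 match to the core, near the end of the printed window. Eif2ak2, with means of 738, 833 and 897, was not called, and its lowest untreated arrays, 364 in WT, 469 in KO and 414 in R, were the 3 untreated arrays with raised 3′ to 5′ ratios.

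Mx1 and Mx2 are dynamin-like GTPases that trap virus particles, and guanylate-binding proteins such as Gbp2 and Gbp3 attack vacuoles of intracellular microbes. None of these 4 genes was called in an untreated line comparison. Gbp2 ran below WT in both other lines, with 722, 879 and 551 in WT, 452, 494 and 585 in KO, and 521, 407 and 460 in R. KO overlapped WT and R did not, and the log2 differences were -0.47 (adjusted p = 0.23, limma) and -0.61 (adjusted p = 0.098). At 4 h Gbp2 was called lower in R than in WT (1.73-fold). Gbp3 was called higher than WT at 4 h in KO (at least 2.39-fold) and R (at least 3.14-fold). At a background of 74.5 these bounds are at least 1.54-fold and at least 2.04-fold. Mx1 read 54.7 in R untreated and 74.0 at 24 h, both below the higher background of 74.5, against 21.4 and 20.5 in WT, with no call.

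Rsad2 encodes viperin, which makes a chain-terminating nucleotide with the help of its neighbour Cmpk2; Bst2, or tetherin, holds virus particles at the cell surface, and Ifitm3 blocks fusion in endosomes. Rsad2 was below background in every WT and KO group and above it in every R group, though at a background of 74.5 only the R group at 24 h was above. Its untreated intensities were 28.8, 34.4 and 14.5 in WT, 31.4, 5.28 and 25.1 in KO, and 44.8, 64.4 and 125 in R. R did not overlap the other lines and was at least 1.47-fold higher than each (limma adjusted p = 0.046 against WT and 0.026 against KO). The call against WT was lost in 25 of 35 alternative fits, among them those without WT untreated replicate 0 or 2 or R untreated replicate 1 or 2; the call against KO was lost without KO untreated replicate 1 or R untreated replicate 1 or 2, and the 2 other probe sets of Rsad2 were below background in all untreated groups. Ifitm3 read 14900, 19000 and 17300 in untreated WT, 22800, 23300 and 22300 in KO, and 20400, 19400 and 19700 in R. Both lines lay above all WT arrays by a small margin. KO was 1.34-fold higher (log2 0.42, SE 0.129, adjusted p = 0.026, limma), a call lost without WT untreated replicate 0 or KO untreated replicate 0 or 1, and R was 1.17-fold higher without a call (adjusted p = 0.28). Bst2 had means of 191, 203 and 241 with overlapping arrays, and was called only at 24 h, where R read 399, 416 and 289 against 238, 216 and 132 in WT (1.92-fold, limma adjusted p = 0.022). That call was lost without WT 24 h replicate 2 or R 24 h replicate 0 or 1.

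Psmb8 and Psmb9 are subunits of the immunoproteasome, and Tap1 and Tap2 form the transporter that carries peptides to MHC class I; the 4 genes lie next to each other on chromosome 17. All 4 were higher in R than in WT, and all but Tap1 were higher in KO than in WT. Psmb8 read 31.3, 87.6 and 64.7 in untreated WT, 420, 558 and 318 in KO, and 243, 215 and 466 in R. Every KO and R array exceeded every WT array. The change was 7.48-fold for KO (log2 2.9, SE 0.42, adjusted p = 3.8e-05, limma) and 5.16-fold for R (adjusted p = 0.00034). At a background of 74.5, WT lies below it and the changes are at least 5.65-fold and at least 3.89-fold. The other probe set of Psmb8 was below background, and the mean of both probe sets was not called. Psmb9 read 24.1, 8.93 and 58.9 in WT, 130, 116 and 74.9 in KO, and 90.4, 86.4 and 168 in R. WT was below background as a mean, so that KO was at least 2.15-fold and R at least 2.27-fold higher (at least 1.4-fold and at least 1.46-fold at a background of 74.5; adjusted p = 0.0036 and 0.0027, limma); both calls were lost with the 6 compared arrays alone (adjusted p = 0.17 each, limma). Tap2 read 154, 158 and 135 in WT, 285, 335 and 261 in KO, and 316, 370 and 614 in R. The lines KO and R overlapped each other but not WT, with changes of 1.97-fold (log2 0.98, SE 0.238, adjusted p = 0.0058, limma) and 2.8-fold (log2 1.48, adjusted p = 0.00012). Tap1 had means of 56.8, 102 and 143 and was called for R (2.51-fold, adjusted p = 0.013, limma) but not for KO (adjusted p = 0.13). At a background of 74.5 the R change is at least 1.92-fold. The 3 other probe sets of Tap1 were below background, and the R call was lost without WT untreated replicate 0 or R untreated replicate 2.

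Parp9 forms a complex with the ubiquitin ligase Dtx3l, and Parp12 and Parp14 attach single ADP-ribose units to proteins. Parp12 and Parp14 were higher in R than in both other lines. Parp12 read 602, 714 and 619 in untreated WT, 844, 820 and 853 in KO, and 1400, 1300 and 1530 in R. No line overlapped another. R was 2.19-fold higher than WT (log2 1.13, SE 0.148, adjusted p = 1.1e-05, limma) and 1.68-fold higher than KO (log2 0.75, adjusted p = 0.0063), while KO minus WT was not called (log2 0.38, adjusted p = 0.085). Parp14 read 83.4, 92.2 and 119 in WT, 114, 127 and 129 in KO, and 182, 305 and 263 in R. R lay above all arrays of both lines, 2.52-fold over WT (adjusted p = 0.00071, limma) and 1.99-fold over KO (adjusted p = 0.033). The call over KO was lost without any 1 of the 3 untreated KO arrays and without R untreated replicate 1 or 2, and the second probe set of Parp14 was below background. Parp9 and Dtx3l had untreated means of 361, 392 and 490 and of 203, 250 and 281, without a call.

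Cxcl10 is a chemokine that draws T cells, and Lgals3bp is a secreted glycoprotein that binds galectins. Lgals3bp read 278, 362 and 282 in untreated WT, 450, 491 and 492 in KO, and 847, 951 and 1000 in R. The lines were fully separated. KO was 1.56-fold higher than WT (log2 0.65, SE 0.186, adjusted p = 0.019, limma), R was 3.05-fold higher than WT (log2 1.61, adjusted p = 2.3e-06) and 1.95-fold higher than KO (log2 0.96, adjusted p = 0.0054). The call for KO was lost without WT untreated replicate 0 or 2 and without KO untreated replicate 1 or 2. Cxcl10 spread widely among the R arrays, at 125, 103 and 118 in untreated WT, 360, 258 and 136 in KO, and 1210, 143 and 1160 in R. The R array at 143 was replicate 1, and the low R array at 24 h, 378 beside 1930 and 1960, was replicate 2; both belong to the 5 arrays with raised 3′ to 5′ ratios. R was 5.1-fold higher than WT (log2 2.35, SE 0.646, adjusted p = 0.013, limma), a call lost without R untreated replicate 0 or 2, and KO was 2.03-fold higher without a call (adjusted p = 0.34).

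Of the remaining genes, Xaf1 encodes a pro-apoptotic partner of XIAP, Rtp4 a receptor-transporting protein and Ifi35 an interferon-induced leucine-zipper protein. Xaf1 read 425, 543 and 463 in untreated WT, 340, 378 and 253 in KO, and 526, 714 and 961 in R. WT lay between the other lines. R was 2.23-fold higher than KO (log2 1.16, SE 0.287, adjusted p = 0.027, limma). That call was lost without KO untreated replicate 0 or 2 and without R untreated replicate 1 or 2. With each probe set tested by limma, its adjusted p was 0.054. A second probe set of Xaf1 read 137 in R and 81.3 in KO, without a call (log2 0.755, adjusted p = 0.57, limma). Neither line was called against WT (adjusted p = 0.2 for KO and 0.18 for R, limma). Rtp4 had untreated means of 155, 165 and 241 and Ifi35 of 2600, 2220 and 3420, with overlapping arrays and no call. Another probe set of Ifi35 was higher in R than in KO (981 and 592, log2 0.73, adjusted p = 0.042 with each probe set tested by limma).

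Set directly against KO in untreated cells, R had 6 genes higher (Lgals3bp, Parp12, Rsad2, Xaf1, Parp14 and Samd9l) and 0 lower, where 2.18% of all genes were called higher and 1.62% lower. At an unadjusted p below 0.05 the comparison gave 17 genes of 39, beside 2811 of all 18193 genes. The median log2 difference of the 39 genes was 0.51 and that of all genes 0.05. The count fell to 3 without KO untreated replicate 0, KO untreated replicate 1 or R untreated replicate 1, and to 2 without R untreated replicate 2; limma on the 6 compared arrays alone called 0, with Lgals3bp at an adjusted p of 0.2.

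**Figure D2:**
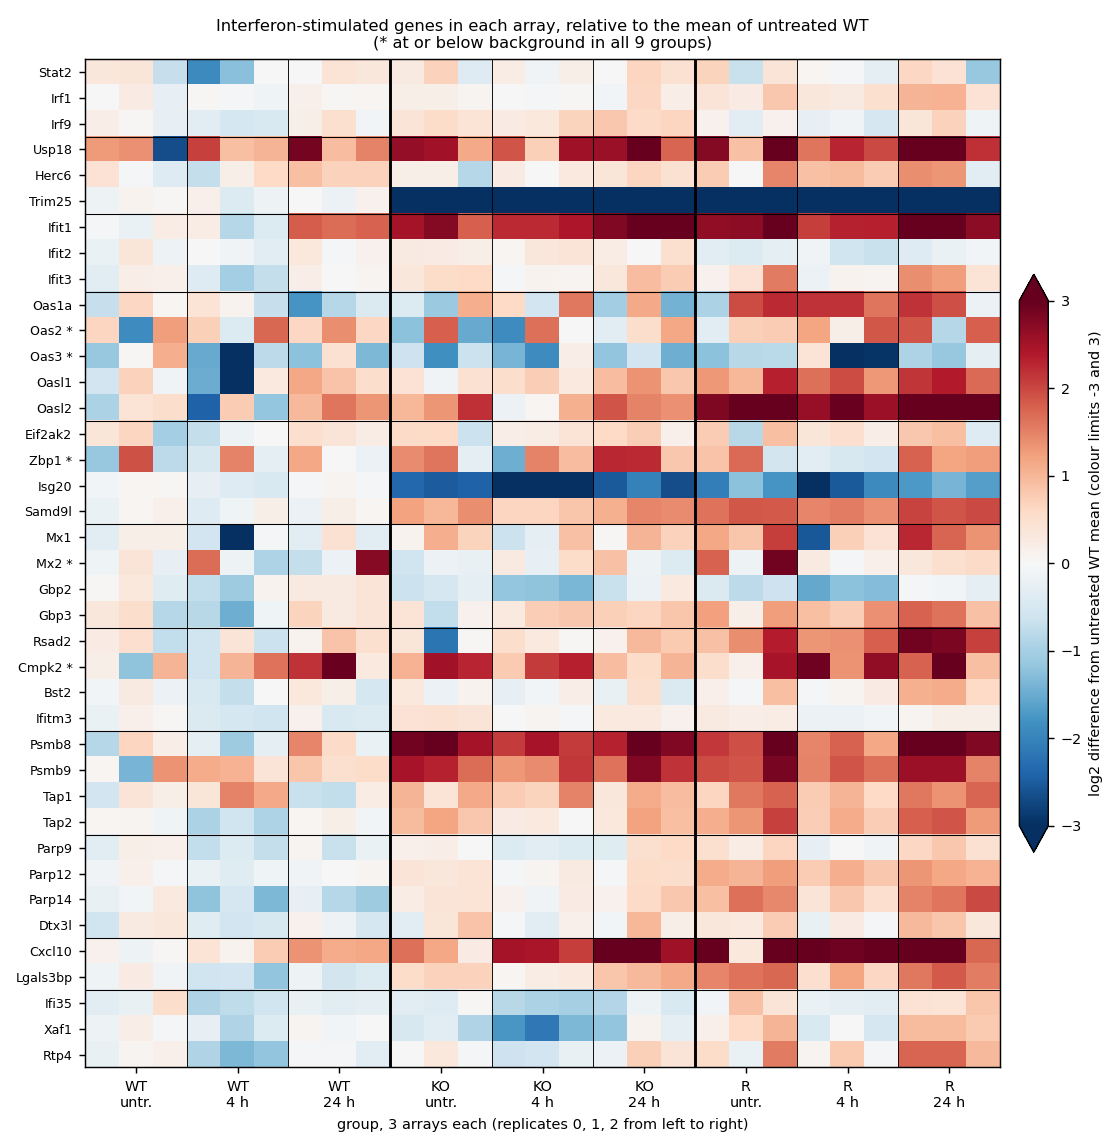
Log2 difference of each of the 39 genes from its mean in untreated WT, in each of the 27 arrays, with genes ordered by role and groups in columns of 3 arrays. Colours end at -3 and 3; Trim25 and Isg20 are blue throughout KO and R, and Samd9l, Psmb8 and Ifit1 are red throughout both.

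The line differences were repeated in irradiated cells. At 4 h, KO had 10 genes higher and 3 lower than WT, beside 5.9% and 8.86% of all genes, and at 24 h 9 higher and 2 lower, beside 8.6% and 10.1%. The line labelled R had 14 higher and 3 lower than WT at 4 h, beside 6.99% and 9.07%, and 20 higher and 2 lower at 24 h, beside 10.9% and 9.78%. The genes lower than WT at 4 h were Isg20, Trim25 and Xaf1 (2.34-fold) in KO and Trim25, Isg20 and Gbp2 in R. Against KO, R had 5 higher and 2 lower at 4 h, beside 1.86% and 1.52%, and 11 higher and 0 lower at 24 h, beside 3.17% and 2.1%. In the 24 h comparison, 16 of the 39 genes had an unadjusted p below 0.05, beside 3187 of all 18193 genes. The median log2 differences of the 39 genes at 24 h were 0.35 for KO minus WT, 0.94 for R minus WT and 0.49 for R minus KO, where those of all genes were -0.02, 0.04 and 0.06. Some calls at 4 h rested on values near background. Oasl1, called higher in KO than in WT, read 53.9 and 11.6 (at least 1.11-fold). Trim25, called lower in R than in KO, read 3.87 and 60.0 (at least 1.24-fold). The KO count at 24 h was 7 without WT 24 h replicate 1. The R minus KO counts moved most: at 4 h they were 2 without KO 4 h replicate 1, 4 without KO replicate 2 and 3 without R replicate 1 or 2, and at 24 h 1 without KO 24 h replicate 0, 5 without KO replicate 2, and 4, 5 and 6 without R replicates 0, 1 and 2.

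A total of 6 genes were higher in KO than in WT in all 3 conditions (Ifit1, Psmb8, Tap2, Ifitm3, Samd9l and Lgals3bp), where 3.91% of all genes were, and Isg20 and Trim25 were lower in all 3 (6.18% of all genes). In R against WT, 10 genes were higher in all 3 conditions (Ifit1, Oasl2, Rsad2, Psmb8, Tap2, Parp12, Parp14, Cxcl10, Samd9l and Lgals3bp; 4.63% of all genes), and Isg20 and Trim25 were lower in all 3 (5.97%). Parp12, Xaf1 and Samd9l were higher in R than in KO in all 3 conditions (0.967% of all genes), and 0 were lower in all 3 (0.846%). Group means rose in the order WT, KO, R in all 3 conditions for 14 of the 39 genes, against 6.57% of all genes. Within a single condition that order held for 20, 21 and 22 of the 39 genes in untreated, 4 h and 24 h cells, against 21.6%, 20.1% and 21.5% of all genes. Neighbours in the order often overlapped, as for Tap2 and Psmb9, and were separated in every array for Samd9l and Lgals3bp when untreated.

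**Figure D3:**
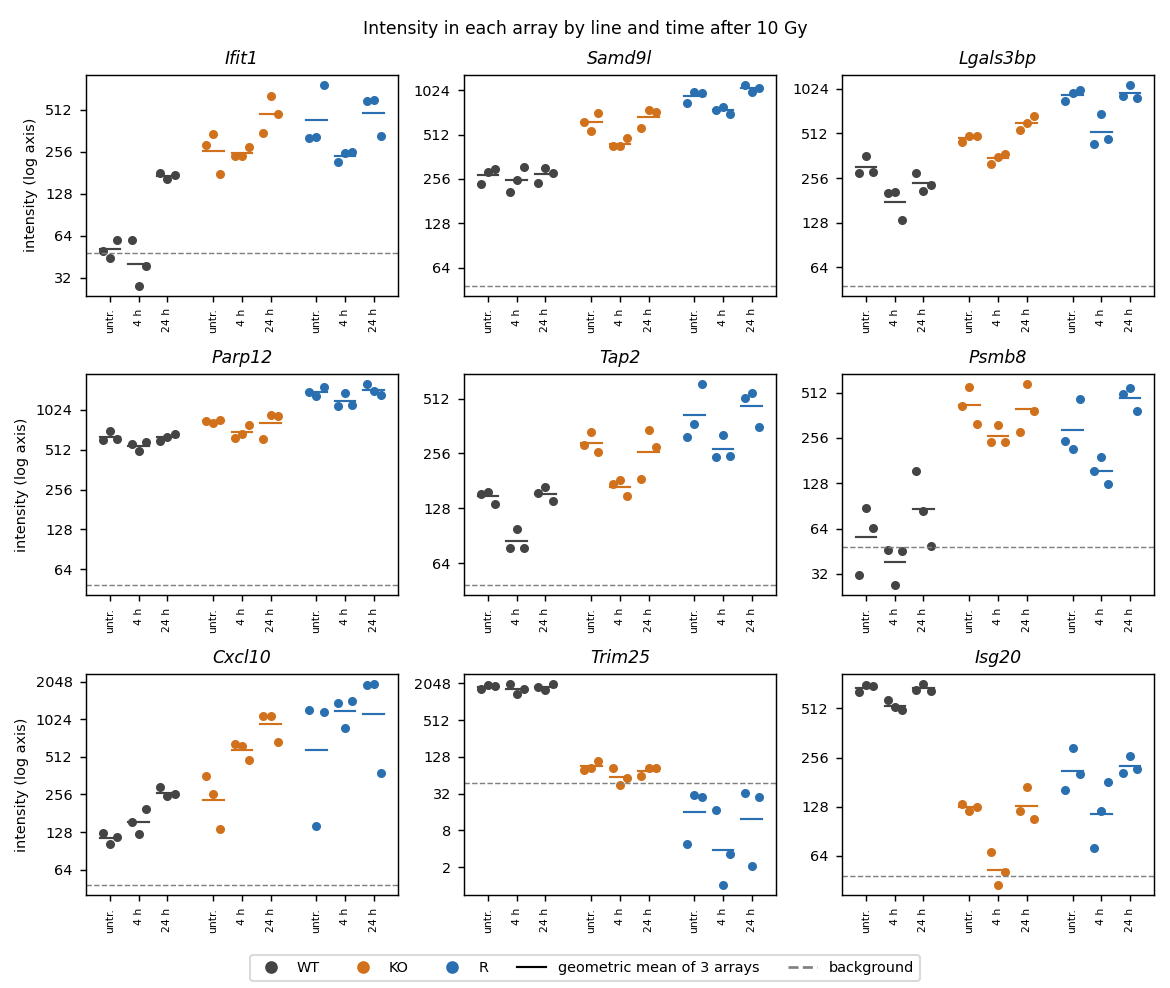
Intensity on a log axis of 9 genes in each of the 27 arrays, with WT in grey, KO in orange, R in blue, bars at the geometric mean of 3 arrays and a dashed line at the background of 48.3. Samd9l, Lgals3bp and Parp12 step up from WT to KO to R, Trim25 and Isg20 are highest in WT, and Cxcl10 has 1 low R array untreated and 1 at 24 h.

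Fewer of the 39 genes were called after irradiation than between lines. At 4 h the median log2 difference from untreated cells was -0.39 in WT, -0.28 in KO and -0.53 in R, where the medians of all genes were -0.01, -0.03 and -0.03. The difference was negative for 30, 27 and 31 of the 39 genes, while 49.2%, 47.1% and 47.1% of all genes had a positive one. In WT 3 genes were lower at 4 h and 0 higher, beside 1.74% and 1.51% of all genes; in KO 1 was lower and 0 higher, beside 0.22% and 0.148%; in R 1 was lower and 0 higher, beside 0.698% and 0.28%. At an unadjusted p below 0.05 the counts were 14, 10 and 14, beside 3085, 2358 and 2677 of all 18193 genes.

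The 3 genes that fell in WT at 4 h were Lgals3bp, Ifitm3 and Parp14. Lgals3bp went from 278, 362 and 282 to 203, 206 and 134, without overlap (1.72-fold, log2 -0.78, SE 0.186, adjusted p = 0.026, limma). In R the same gene went from 847, 951 and 1000 to 432, 693 and 472, again without overlap (1.79-fold, log2 -0.84, adjusted p = 0.041, limma), and in KO from 450, 491 and 492 to 317, 356 and 373 without a call (log2 -0.46, adjusted p = 0.29). Ifitm3 went in WT from 14900, 19000 and 17300 to 12600, 11700 and 11200 (1.44-fold, log2 -0.52, SE 0.129, limma adjusted p = 0.031). All irradiated arrays of Ifitm3 at 4 h lay below all untreated ones in each of the 3 lines, with log2 differences of -0.41 in KO and -0.36 in R that were not called (adjusted p = 0.16 and 0.18). Parp14 went from 83.4, 92.2 and 119 to 42.2, 68 and 38.4, a mean below background and a fall of at least 2.01-fold (at least 1.3-fold at a background of 74.5; adjusted p = 0.033, limma). In KO the gene called was Isg20, at 134, 121 and 128 untreated and 68.1, 42.5 and 50.7 at 4 h (2.42-fold, log2 -1.28, SE 0.263, adjusted p = 0.042, limma). At a background of 74.5 that fall is at least 1.72-fold. These calls were near the threshold: the WT count was 0 without WT untreated replicate 1 or 2 1 without WT 4 h replicate 0 and 5 without R untreated replicate 1 or 2, the KO call was lost without any 1 of 15 of the 27 arrays (the 6 untreated and 4 h KO arrays and 9 WT and R arrays), and the R call without any 1 of 12 (R untreated replicates 1 and 2, R 4 h replicates 0 and 2, R 24 h replicates 0 and 1, 5 KO arrays and WT 24 h replicate 2). Limma without the 5 arrays of raised 3′ to 5′ ratio called 0 in each line at 4 h.

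Other genes showed separated arrays at 4 h without a call. Xaf1 went in KO from 340, 378 and 253 to 141, 107 and 185 (log2 -1.18, limma adjusted p = 0.074), and in R from 526, 714 and 961 to 346, 478 and 334 (log2 -0.9, adjusted p = 0.13). Tap2 went in WT from 154, 158 and 135 to 77.4, 98.6 and 77.9 (log2 -0.82, adjusted p = 0.063, limma) and in KO from 285, 335 and 261 to 175, 183 and 149 (log2 -0.8, adjusted p = 0.14). Isg20 in R went from 163, 293 and 202 to 71.3, 120 and 182, which overlap (log2 -0.88, adjusted p = 0.11, limma). The 4 h means of Cxcl10 were above the untreated ones in WT (115 and 154), KO (233 and 583) and R (586 and 1200), without a call. The arrays were separated in KO and overlapped in WT and R. In R they read 1210, 143 and 1160 untreated and 1380, 874 and 1420 at 4 h. The low untreated R array is among the 5 of raised 3′ to 5′ ratio.

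At 24 h no gene of the 39 was called against untreated cells in any line. Of all genes, 0.0495% were called in WT, 0.0% in KO and 0.0% in R. At an unadjusted p below 0.05 limma gave 4, 3 and 1 of the 39, beside 1745, 1064 and 830 of all 18193 genes. The median log2 differences of the 39 genes were 0.09, 0.12 and 0.24. Ifit1 in WT went from 50, 44.5 and 59.8 untreated to 179, 162 and 175, far outside the untreated range (3.37-fold, log2 1.75, SE 0.338), with an adjusted p of 0.057 in limma. The count of called genes in WT was 1 in place of 0 without WT 4 h replicate 0, WT 4 h replicate 1 or R untreated replicate 2. Oasl2 in WT went from 7.52, 19.3 and 21 to 28.5, 43.8 and 36.2, still below background, and Parp14 from 83.4, 92.2 and 119 to 81.3, 54 and 46 (log2 -0.73, adjusted p = 0.39, limma). In KO, Cxcl10 went from 360, 258 and 136 to 1090, 1090 and 675 (3.99-fold, log2 2.0, SE 0.646, adjusted p = 0.65, limma), with no overlap. Ifit1 in KO went from 286, 343 and 178 to 350, 648 and 478 (log2 0.88, adjusted p = 0.75, limma), and Rsad2 stayed below background. In R, Rtp4 went from 226, 135 and 456 to 519, 523 and 303, Bst2 from 211, 186 and 358 to 399, 416 and 289, and Gbp2 from 521, 407 and 460 to 693, 668 and 584. Only Gbp2 of these 3 had separated arrays, and each had an adjusted p of 0.94 or 1.0 in limma.

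**Figure D4:**
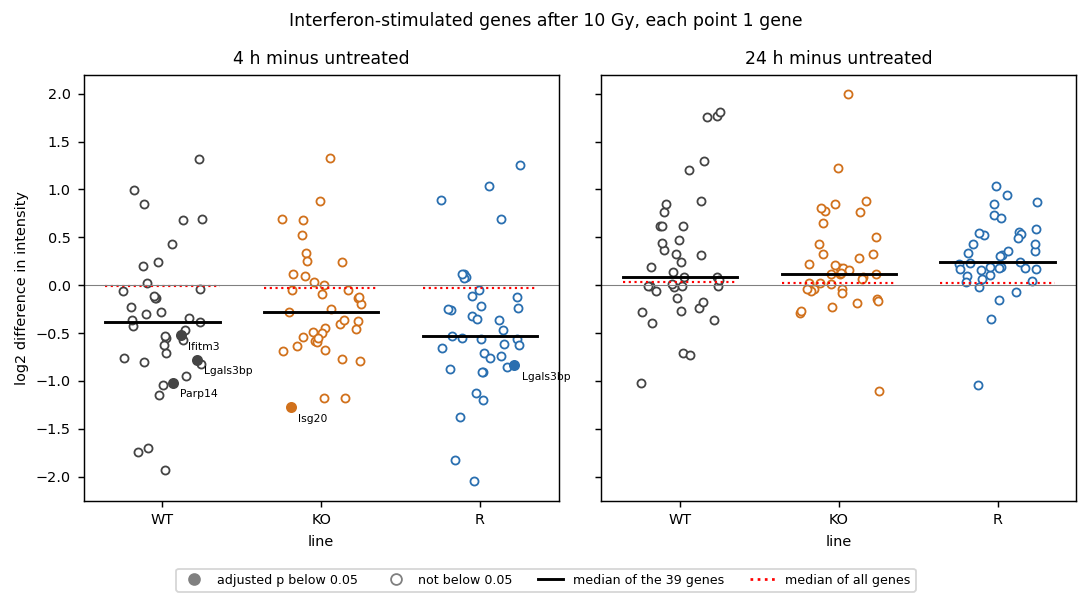
Log2 difference from untreated cells of the same line, at 4 h on the left and at 24 h on the right, each point 1 of the 39 genes, with filled points at an adjusted p below 0.05. Solid bars mark the median of the 39 genes, -0.39, -0.28 and -0.53 at 4 h and 0.09, 0.12 and 0.24 at 24 h, and dotted red bars the median of all genes.

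From 4 h to 24 h, 36 of the 39 genes had a positive log2 difference in WT, 32 in KO and 34 in R, in a comparison that was added after the data were seen and that shares its 4 h arrays with the one above. The median log2 difference was 0.48 in WT, 0.43 in KO and 0.76 in R, where those of all genes were 0.04, 0.04 and 0.07. In WT 3 genes were higher (Ifit1, Oasl1 and Oasl2) and 1 lower (Tap1), beside 1.11% and 1.49% of all genes. Oasl2 was below background in both WT groups (7.52 and 35.6), so no fold is given. Oasl1 went from 11.6 to 67.8, at least 1.4-fold, and was below 74.5 in both. In R 4 were higher (Gbp2, Lgals3bp, Parp14 and Xaf1) and 0 lower, beside 1.24% and 0.335%, and in KO 0 were called, beside 0.0055% and 0.0%. In KO 11 had an unadjusted p below 0.05 in limma, beside 1495 of all 18193 genes. Tap1 turned to a log2 difference of 0.049 (adjusted p = 0.98, limma) with the mean of all its probe sets. Gbp2 in R read 244, 298 and 286 at 4 h and 693, 668 and 584 at 24 h (2.35-fold, adjusted p = 0.02, limma), and Xaf1 read 346, 478 and 334 and then 909, 916 and 820 (2.31-fold, adjusted p = 0.038). Ifit1 in WT went from a mean below background to 172, at least 3.56-fold higher (adjusted p = 0.0043, limma). The WT count was 1 or 2 without any 1 of 5 WT arrays (4 h replicates 0 and 1, and the 3 at 24 h), the KO count was 3 without KO 24 h replicate 0, and the R count was 0 without R 4 h replicate 0 or any 1 of the 24 h R arrays and 1 without R 4 h replicate 2. For 22 of the 39 genes the 4 h mean was the lowest of the 3 in every line, against 14.9% of all genes.

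The response to irradiation was also compared between lines by an interaction term in limma. No gene of the 39 was called in any of the 6 terms. The share of all genes called was 0.011% for KO minus WT, 0.0165% for R minus WT and 0.0% for R minus KO at 4 h, and 0.0055% in each of the 3 at 24 h. The counts of the 39 at an unadjusted p below 0.05 were 4, 1 and 0 at 4 h and 3, 2 and 0 at 24 h. In the same order, the counts of all 18193 genes were 998, 1083 and 537 at 4 h and 625, 683 and 544 at 24 h. A call in 1 line and not in another, such as Isg20 at 4 h, is therefore not shown to differ between lines.

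The genes also varied together among the arrays of a group. Over the 29 genes whose mean lay above background, the mean log2 difference from untreated WT was 1.0 in R untreated replicate 2, against 0.44 and 0.33 in replicates 0 and 1, while the mean of all genes was 0.0, -0.04 and 0.01. In that array 29 of the 39 genes were the highest of their group, where 32.2% of all genes were. At 24 h R replicates 0 and 1 stood at 1.06 and 0.95 and replicate 2 at 0.55, with 26 of the 39 genes lowest in replicate 2 (37.9% of all genes); that array is among the 5 of raised 3′ to 5′ ratio, and the part of that ratio was not tested. KO 24 h replicate 1, which is not among them, stood at 0.74 against 0.2 and 0.5, with 25 of 39 genes highest (31.2% of all genes). Ifit1, at 776 in R untreated replicate 2 against 323 and 326, and Ifit3, at 476 against 179 and 220, show this spread, while Samd9l read 981 in that array against 844 and 994. Of the 39 genes, 7 were lowest of their group in at least 4 of the 5 arrays of raised ratio. These were Stat2, Irf1, Usp18, Tap2, Parp9, Eif2ak2 and Herc6, a share close to the 18.6% of all genes. Ifi35 and Parp14 were highest in at least 4, against 21% of all genes.

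The rest of the pathway was described with lists of genes by role. Of 11 interferons and receptors, 2 were lower in untreated KO than in WT and 3 in R: Ifnlr1 and Il10rb, receptor chains for interferon lambda, were lower in both lines, and Ifnar2 in R. Ifnlr1 read 50.5 in untreated WT, close to background, and was above 48.3 in only 2 of the 9 groups. Ifnb1, the gene for interferon beta, was below background in every group, and Ifnar1 read 1600, 1490 and 1310 in WT, KO and R. Of 12 measured JAK, STAT and IRF genes, Jak1 was higher in KO (log2 0.62, adjusted p = 0.00084, limma) and R (0.55), Irf5 lower in KO (log2 -3.42, adjusted p = 6.3e-10) and R (-2.7), and Stat3 lower in R (-0.64, adjusted p = 0.035). Of 10 negative regulators, Socs1, an inhibitor of JAK kinases, was called higher in both lines. Its untreated means were 29.4 in WT, below background, 87.3 in KO and 69.9 in R. Among 14 sensors of nucleic acid and their adaptors, Cgas (693 and 911 against 225 in WT) and Samhd1 were higher in KO and R, Ifih1 and Rigi were higher in R than in both other lines, and Tbk1, a kinase below these sensors, was lower in R than in WT (log2 -0.58, adjusted p = 0.0028, limma). Of 13 genes of MHC class I presentation, H2-K1, H2-D1, H2-M3 and B2m were higher in both lines, with H2-D1 at 1060 in WT, 4260 in KO and 3560 in R (adjusted p = 3.6e-07 and 2e-06, limma). These follow the same direction as Psmb8, Psmb9 and Tap2 beside them in the pathway. The 46 measured of 56 other interferon-stimulated genes went both ways: KO had 4 higher and 7 lower than WT, and R had 6 higher and 3 lower. As for each list here, these counts stand beside 7.77% higher and 9.83% lower of all genes for KO and 9.39% each way for R. The median log2 difference of the 46 genes was -0.2 for KO minus WT, with 21 positive, and 0.13 for R minus WT, with 27 positive. Pml, Ly6e, Ccl5 and Uba7 were higher in both lines, and Ifi27l2a, Irgm1 and Rnf213 were lower in both.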

How the data were processed

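RNA from 27 samples was hybridised to 1-colour Affymetrix arrays. The authors deposited linear intensity values per probe set; RMA and GCRMA are listed in the submitters' processing notes with no role, but the trimmed mean of every array was 500.003 (2% cut at each end), and the summary method is not given in the sources used here. Values were used as deposited and taken to log2. Gene names came from the platform annotation: 34945 probe sets had 1 symbol, 932 several and 9160 none, and 64 were controls. Background was the highest value of the Y-linked genes Eif2s3y, Uty and Kdm5d. Group means of all 9 groups were fitted with limma 3.58.1 in R 4.3.3, with two-sided tests and Benjamini-Hochberg adjustment over 18193 genes; the code was tested on simulated data. Exact permutation of 3 against 3 arrays cannot go below p = 0.1 and was not used. Genes described in full were the up to 6 with the smallest p in each untreated line comparison and up to 3 in each irradiation comparison. The members and lists were chosen with earlier results of these data known. "At least" folds set the dim group at background. Replicate numbers were not used as pairs in the main fit. Over 108 pairs of same-numbered arrays, the correlation of deviations from group means ran from -0.65 to 0.72 (median 0.02). Alternatives tried were a replicate block, the compared arrays only, an intensity trend, a filter on dim genes, quantile and median scaling, other uses of several probe sets, and leaving out each array.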

Additional observations from a re-analysis of the deposited data

How the results depend on the processing

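Counts are of the 39 genes called by limma in each comparison. With only the 6 compared arrays fitted, they were 7 for R minus WT, 0 for R minus KO untreated, 8 for KO minus WT and 3 for R minus KO at 4 h, 7 and 1 for the same pairs at 24 h, and 0 for every irradiation comparison at 4 h and for WT and R from 4 h to 24 h. With each probe set tested, R minus KO had 3 untreated and 6 at 24 h, the 4 h responses 0 in each line, and 24 h minus 4 h 1 in WT and 1 in R; the mean of all probe sets gave 3, 6, 1 in WT at 4 h, 0 in KO and R, and 1 in WT from 4 h to 24 h, where Tap1 turned to 0.049 (adjusted p = 0.98). Equal array medians gave 15 for KO minus WT untreated, 7 for R minus KO at 24 h, 0 for KO and R at 4 h and 2 for R from 4 h to 24 h; quantile scaling gave 14, 7, 0 and 0 in the first 4 of these. Over genes above the median level, fewer genes tested, R minus WT had 9 untreated and 11 at 4 h, irradiation 5 in WT, 2 in KO and 3 in R at 4 h and 1 in WT at 24 h, and 24 h minus 4 h 2 in KO and 11 in R. An intensity trend gave 5, 2 and 1 for WT at 4 h, KO at 4 h and WT at 24 h. Without the 5 arrays of raised 3′ to 5′ ratio, R minus KO at 4 h had 11, WT, KO and R 0 at 4 h, WT 1 at 24 h, and WT 2 from 4 h to 24 h. The causes were not tested.

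Leaving out each array gave 7 to 10, 11 to 15 and 7 to 13 for KO minus WT untreated, at 4 h and at 24 h; 11 to 18, 14 to 17 and 15 to 24 for R minus WT; and 2 to 7, 2 to 8 and 1 to 11 for R minus KO. Irradiation gave 0 to 5 in WT, 0 to 2 in KO and 0 to 1 in R at 4 h, 0 to 1 in WT and 0 in KO and R at 24 h; 24 h minus 4 h gave 1 to 6, 0 to 3 and 0 to 6, and the interactions 0. The replicate block gave 10, 13 and 7 in the untreated comparisons (KO minus WT, R minus WT, R minus KO). In WT at 4 h it gave 4. For 13 of 27 arrays, the mean correlation with other groups' arrays was highest at the own number, among 3 numbers. Where a group lay near background, only bounds on a fold could be given, and 3 arrays a group limit the precision. The response element core with 1 more A was in 40.0% of the promoters, against 3.64% of all genes.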
